A study of Homo sapiens with 4 samples.

Results

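The genes described here encode the translation initiation factors, the proteins that bring a ribosome to the start codon of an mRNA. The data are STAT5A peaks at these genes, measured by ChIP-seq (sequencing of DNA recovered by chromatin immunoprecipitation) in the established human cell line ARP1, which comes from a multiple myeloma. STAT5A is a transcription factor that the JAK kinases activate, and YTHDF2 is a protein that binds N6-methyladenosine on mRNA and promotes decay of the bound transcript. Wild-type ARP1 cells and ARP1 cells with a YTHDF2 knockdown each gave 1 library made with a STAT5A antibody and 1 input library made without antibody, 4 libraries in all, and the authors deposited 1 list of called peaks per condition. The antibody labels name STAT5A and the molecule labels genomic DNA, although the design text of the series speaks of histone modifications and the titles of input RNA. How YTHDF2 was knocked down, whether the wild-type cells carried a control construct and whether the knockdown cells were 1 clone are not given in the sources used here.

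Members were all genes in either list whose symbol starts with EIF1 to EIF6, other than the EIF2AK kinases. The rule found 44 of the 18744 genes named in the lists, 42 of them protein-coding and 2 of them RNA genes (EIF1B-AS1 and EIF3J-DT). They held 129 of 86496 peaks, with 55 of 31227 peaks and 39 genes in the knockdown list and 74 of 55269 peaks and 41 genes in the wild-type list. Each peak is credited to 1 gene and carries a fold enrichment, which is the authors' own linear ratio with a denominator not given in the sources used here. With 1 list per condition there was no replicate check and no test between conditions. Where folds of both lists are given together, the knockdown value comes first, and the pair describes the lists without measuring a change. Read depth is unknown.

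Initiation starts when eIF2 carries the initiator tRNA to the small ribosomal subunit, where eIF1, eIF1A, eIF3 and eIF5 join it. The eIF4F complex binds the mRNA cap and unwinds the leader, the subunit scans to the start codon, and eIF5B then joins the large subunit. Control acts mainly at the recycling of eIF2 by its exchange factor eIF2B, which stress kinases block through eIF2 phosphorylation, and at the cap-binding protein eIF4E, which the 4E-BP proteins hold back until mTOR phosphorylates them. Myeloma cells derive from plasma cells, which secrete large amounts of immunoglobulin and so carry a heavy load of protein synthesis.

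The promoters that carry the results are shown first, as the 250 bases before the transcript start in RefSeq (GRCh38.p14, hg38 coordinates), written in the direction of the gene. The first set holds the promoters of EIF4A1 (chr17:7572575-7572824, plus strand), EIF2B2 (chr14:75002671-75002920, plus strand), EIF5 (chr14:103333987-103334236, plus strand) and EIF2B4 (chr2:27370339-27370588, minus strand). They were under some of the strongest member peaks, and capitals mark each CCAAT box (CCAAT, or ATTGG where it lies on the other strand). The promoter of EIF5B (chr2:99337139-99337388, plus strand) is shown beside them as one under a weak peak with no such box.
EIF4A1: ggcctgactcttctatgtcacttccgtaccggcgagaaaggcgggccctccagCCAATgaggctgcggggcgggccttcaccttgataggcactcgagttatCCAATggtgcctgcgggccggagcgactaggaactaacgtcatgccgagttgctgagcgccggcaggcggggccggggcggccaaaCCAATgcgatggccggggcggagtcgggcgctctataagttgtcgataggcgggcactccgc
EIF2B2: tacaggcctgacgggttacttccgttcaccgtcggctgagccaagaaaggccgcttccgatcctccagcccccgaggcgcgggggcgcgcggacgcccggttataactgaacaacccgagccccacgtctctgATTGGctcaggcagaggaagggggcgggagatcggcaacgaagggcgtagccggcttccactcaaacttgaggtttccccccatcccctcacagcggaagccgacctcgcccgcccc
EIF5: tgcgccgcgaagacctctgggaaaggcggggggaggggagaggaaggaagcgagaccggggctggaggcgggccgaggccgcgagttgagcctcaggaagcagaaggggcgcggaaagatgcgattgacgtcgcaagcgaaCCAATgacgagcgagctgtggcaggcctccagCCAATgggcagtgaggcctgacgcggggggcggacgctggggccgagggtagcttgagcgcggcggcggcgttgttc
EIF2B4: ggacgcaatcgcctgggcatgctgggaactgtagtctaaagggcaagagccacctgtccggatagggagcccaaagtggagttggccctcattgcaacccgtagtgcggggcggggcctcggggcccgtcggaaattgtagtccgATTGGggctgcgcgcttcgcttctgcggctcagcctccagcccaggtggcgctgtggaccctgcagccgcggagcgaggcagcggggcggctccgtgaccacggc
EIF5B: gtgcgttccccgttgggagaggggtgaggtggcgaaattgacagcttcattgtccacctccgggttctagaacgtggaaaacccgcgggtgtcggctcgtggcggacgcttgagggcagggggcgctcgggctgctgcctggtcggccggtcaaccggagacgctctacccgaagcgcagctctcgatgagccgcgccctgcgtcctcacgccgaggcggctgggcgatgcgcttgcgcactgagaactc

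EIF4A1 had 3 CCAAT boxes, which began 197, 148 and 62 bases before the start. The peak summit lay at position 7572693 in both lists, 132 bp before the start and 14 bp from the centre of the middle box. In EIF2B2 the single box began 117 bases before the start, with the summit 14 bp from it in the knockdown list and 12 bp in the wild-type list. EIF5 had boxes beginning 109 and 77 bases before the start, and the summit lay 12 and 3 bp from the nearer one. The EIF2B4 summits lay 38 and 28 bp from its only box. EIF5B had its knockdown summit 130 bp before the start and its wild-type summit 324 bp after it.

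The second set shows 3 genes of the cap-binding machinery, EIF4E (chr4:98929134-98929383, minus strand), EIF4G1 (chr3:184314356-184314605, plus strand) and EIF4H (chr7:74174106-74174355, plus strand). Capitals mark the E-box CACGTG, the site that MYC and related proteins recognise, and in EIF4E also a match to the STAT site TTCNNNGAA, written TTCCCAGAA.
EIF4E: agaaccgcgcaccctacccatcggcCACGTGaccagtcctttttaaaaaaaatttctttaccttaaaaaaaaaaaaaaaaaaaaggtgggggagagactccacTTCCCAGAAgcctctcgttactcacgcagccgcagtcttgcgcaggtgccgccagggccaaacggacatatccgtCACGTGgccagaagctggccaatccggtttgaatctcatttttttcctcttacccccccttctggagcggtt
EIF4G1: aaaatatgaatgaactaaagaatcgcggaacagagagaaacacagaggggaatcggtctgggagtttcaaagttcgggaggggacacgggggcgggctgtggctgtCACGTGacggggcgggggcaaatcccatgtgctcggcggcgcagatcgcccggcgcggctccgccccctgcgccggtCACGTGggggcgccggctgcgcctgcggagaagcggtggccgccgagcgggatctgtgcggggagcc
EIF4H: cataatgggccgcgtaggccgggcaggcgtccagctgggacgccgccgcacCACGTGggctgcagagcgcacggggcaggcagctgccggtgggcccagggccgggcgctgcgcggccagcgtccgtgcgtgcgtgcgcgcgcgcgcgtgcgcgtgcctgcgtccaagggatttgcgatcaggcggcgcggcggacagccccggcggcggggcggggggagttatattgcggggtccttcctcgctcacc
Peak summits at these promoters lay away from the marked sites and after the start. The wild-type summit at EIF4E was 192 bp past the start and 335 bp from the STAT match. The EIF4G1 summits were 290 bp past the start in the knockdown list and 271 bp in the wild-type list, at least 335 bp from either E-box. Those of EIF4H lay 138 and 146 bp past the start, 334 and 342 bp from its E-box.

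Most initiation factor genes had a called STAT5A peak at the promoter in both conditions, many of them of low fold in the knockdown list. A promoter peak is one credited to the gene within 1 kb of a transcript start, by the authors' distance from the peak edge. Of the 42 protein-coding members, 34 had one in both lists, 1 in the knockdown list only, 3 in the wild-type list only and 4 in neither. Since a gene needed a peak to become a member, the fair denominator is the 51 protein-coding genes of this family in the RefSeq gene table on chromosomes 1 to 22 and X, 9 of which had no credited peak. Over these, 35 genes (68.6%) had a promoter peak in the knockdown list, against 56.1% of the 19974 protein-coding genes considered, and 37 (72.5%) in the wild-type list, against 64.7%. The share in both lists was 66.7%, against a background of 53.6%. With a fold of at least 5 required, 18 of the 51 had one in both lists and 16 in the wild-type list only, where the shares of all genes were 29.8% and 30.8%. The backgrounds for a promoter peak in 1 list only were 2.42% (knockdown) and 11% (wild type), beside 1 and 3 family genes. Many of the genes considered may be silent in this cell line, and RNA was not analysed here.

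The peaks were, on the whole, of ordinary strength for a promoter. The strongest promoter peak per member had a median fold of 5.18 in the knockdown list (35 genes, 3.09 to 147), and the median over all 11198 genes with a promoter peak was 5.22. The wild-type medians were 11.1 for 37 members (3.50 to 371) and 11.1 for all 12915 genes. In both lists, EIF4A1, EIF2B2, EIF5 and EIF4E3 stood above the other members, at or above percentile 92.9. A fold of at least 20 was reached by 4 of 35 members in the knockdown list and 8 of 37 in the wild-type list, where it was reached by 8.80% and 16.6% of all genes. Members' promoter peaks had a median width of 863 bp in the knockdown list and 966 bp in the wild-type list, against 691 and 896 bp for all genes.

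**Figure D1:**
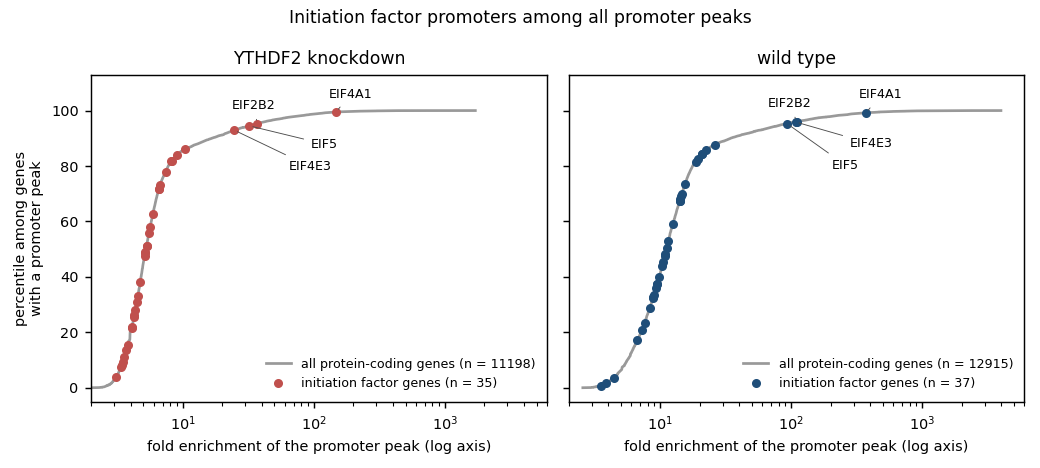
Percentile of each promoter peak (vertical axis, %) by its fold enrichment (horizontal log axis), in the knockdown list on the left and the wild-type list on the right. The grey line holds all protein-coding genes with a promoter peak, and the points are the 35 and 37 initiation factor genes, of which EIF4A1, EIF2B2, EIF5 and EIF4E3 sit at the upper end in both lists.

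The fold was higher in the wild-type list for 33 of the 34 members with such a peak in both, as it was for most genes. The only member with the higher fold in the knockdown list was EIF4EBP3, and the share over all genes was 2.9%. The wild-type fold divided by the knockdown fold had a median of 2.54 over the 34 members (0.834 to 4.53). Over all 10715 genes with a promoter peak in both lists the median was 2.33, with quartiles of 1.77 and 2.99, and 16 of the 34 members fell between these quartiles. Ratios above 4 were found at EIF4E (4.53), EIF4E3 (4.36) and EIF3M (4.13). At the low end, EIF2S3 had a ratio of 1.04 and EIF3F one of 1.35.

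**Figure D2:**
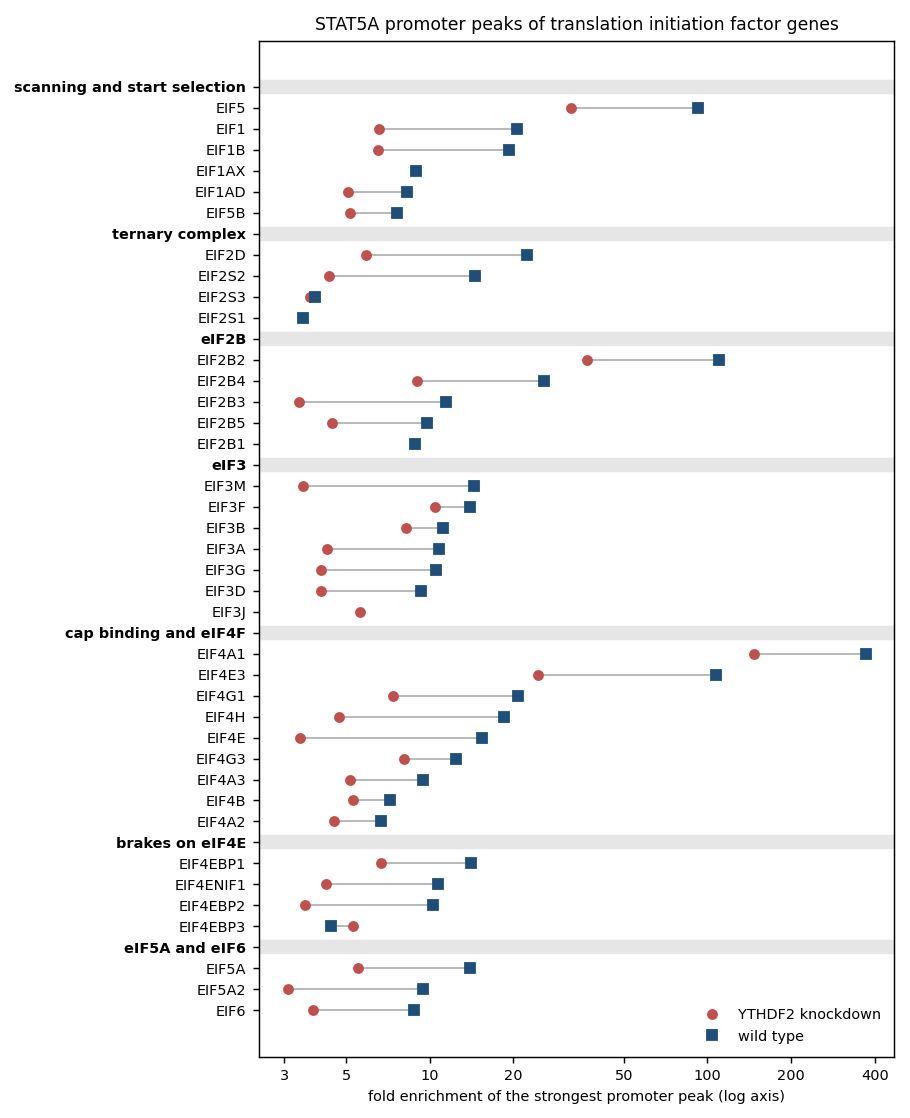
Fold enrichment of the strongest promoter peak of each protein-coding initiation factor gene on a log axis, grouped by role. Red circles are the YTHDF2 knockdown list and blue squares the wild-type list, 1 list each and so without error bars, and a single symbol marks a gene with a promoter peak credited in that list only. The wild-type square lies to the right of the knockdown circle at every gene with both except EIF4EBP3.

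Of the 6 genes assigned to scanning and start codon selection, all had a promoter peak in the wild-type list and 5 in the knockdown list. Their median folds were 6.53 in the knockdown list and 14.1 in the wild-type list. The shares of all protein-coding genes with a promoter peak were 56.1% and 64.7% in the same order. EIF5, the GTPase-activating protein of eIF2, had the strongest peak of the group, its fold being 32.1 in the knockdown and 92.4 in the wild-type list, across positions 103333505 to 103335322 and 103333446 to 103335147 of chromosome 14. The peaks of EIF1, which guards the choice of start codon, had folds of 6.57 and 20.7. Its paralog EIF1B had nearly the same values, 6.53 and 19.3. The 2 EIF1 summits were 467 bp apart, whereas those of EIF1B were 14 bp apart. EIF1AX, the X-linked gene for eIF1A, had a peak of 8.89 in the wild-type list, and no knockdown peak lay within 1 kb of its start. EIF1AD, whose part in scanning was not examined here, had folds of 5.10 and 8.28. EIF5B, the GTPase of subunit joining, had folds of 5.18 and 7.61, and a stronger peak credited to TXNDC9 (10.2 and 10.9) lay within 1 kb of its start.

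The genes of the eIF2 trimer had knockdown folds below the median of all genes, or no knockdown peak, and EIF2S2 alone was above the wild-type median. EIF2S1 encodes the alpha subunit, which stress kinases phosphorylate, and had a wild-type peak with a fold of 3.50 (q-value 0.00181, authors' own) and no knockdown peak within 1 kb. EIF2S2, the beta subunit, had folds of 4.33 and 14.5. EIF2S3, the X-linked gamma subunit, had 3.70 and 3.86, and the wild-type peak lay beside the RefSeq start rather than over it. The strongest peak among these relatives belonged to EIF2D, which can place tRNA on the ribosome without eIF2, with folds of 5.91 and 22.4 and summits 5 bp apart. No promoter peak was credited to EIF2A, a separate protein from the trimer that also binds initiator tRNA. Its start lay under a wild-type peak of 13.3 credited to its divergent neighbour SERP1, and a SERP1 peak of 3.98 lay within 1 kb in the knockdown list.

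The exchange factor eIF2B is built from 5 subunits, and its genes ranged widely. EIF2B2, the beta subunit, had folds of 37.0 and 110, in peaks at 75002560 to 75003192 and 75002561 to 75003337 of chromosome 14. EIF2B4, the delta subunit, followed with 9.01 and 25.9. Lower values were found at EIF2B3 (3.38 and 11.5) and at EIF2B5, the catalytic epsilon subunit (4.44 and 9.80). EIF2B1 had a wild-type peak of 8.83, and its start had no knockdown peak within 1 kb. The highest and lowest wild-type folds of the complex thus belonged to EIF2B2 and EIF2B1.

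Of the 14 genes of eIF3, the large scaffold on the small ribosomal subunit, 7 had a promoter peak in the knockdown list and 6 in the wild-type list, with median folds of 4.27 and 11.0. Over all protein-coding genes the shares were 56.1% and 64.7%. None of them reached a fold of 20. EIF3M had folds of 3.49 and 14.4, EIF3F 10.4 and 14.0, and EIF3B 8.23 and 11.1. The RefSeq start of EIF3B lay under these peaks, and a wild-type peak of 6.22 over another start had its summit nearer to that start. EIF3A, a core scaffold subunit, had 4.27 and 10.8, and EIF3D, which can bind the cap of some mRNAs, had 4.08 and 9.28. EIF3G had 4.06 and 10.5, but its strongest wild-type peak was 4227 bp wide and the one with its summit nearest a start had a fold of 6.89. EIF3J was the only member with a promoter peak in the knockdown list alone (5.63). The wild-type peak over the same start had a fold of 17.8 and was credited to the divergent RNA gene EIF3J-DT, so the difference lies in the credit and not in the presence of a peak.

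Other eIF3 genes had no credited promoter peak. No peak at all was credited to EIF3C, EIF3CL, EIF3I, EIF3K or EIF3L. EIF3C and EIF3CL are near-identical copies, so reads from them may not have been placed and their lack of peaks is uncertain. EIF3I had its start under peaks of 3.23 and 5.79 credited to TMEM234. For EIF3K the wild-type peak over the start (7.08) was credited to MAP4K1, whose knockdown peak (3.92) lay within 1 kb. EIF3E had 1 knockdown peak (4.34), 3.01 kb before the start in the authors' annotation, in an intron of a transcript without a gene identifier. EIF3H had 1 wild-type peak 126 kb from the nearest start in the same annotation (6.65). The RefSeq promoter table has no window for EIF3CL, EIF3E, EIF3H or EIF3L, so coverage of their starts was not analysed here.

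In the cap-binding group, the helicase gene EIF4A1 had the strongest peak of all members, and its paralogs had weaker ones. EIF4A1 encodes the main helicase of eIF4F, and its peak reached 147-fold enrichment in the knockdown list (7572420 to 7574121 of chromosome 17) and 371-fold in the wild-type list (7572431 to 7574087), at percentiles 99.5 and 99.1 of all genes. EIF4A2, which encodes a closely related helicase, had 4.54 and 6.66, and EIF4A3, part of the exon junction complex, 5.17 and 9.45. The scaffold genes EIF4G1 and EIF4G3 had 7.37 and 20.8, and 8.11 and 12.4. EIF4E itself, the cap-binding subunit, had one of the weakest knockdown peaks (3.41) and a wild-type peak of 15.4. Its relative EIF4E3 had folds of 24.6 and 107. That peak (71724694 to 71725822 of chromosome 3 in the knockdown list, 71724699 to 71725775 in the wild-type list) covered a start used by the authors' annotation, and none of the EIF4E3 starts in the RefSeq promoter table lay in it. The first RefSeq start of EIF4E3 lay under weaker peaks credited to GPR27 (5.44 and 15.6).

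The helicase cofactors EIF4H and EIF4B had folds of 4.72 and 18.5, and of 5.28 and 7.19. EIF4G2, a scaffold relative that does not bind eIF4E, had no credited promoter peak, but its start lay under peaks of 6.50 and 32.1 credited to LOC101928053. EIF4E2, a cap-binding protein linked to repression, had none either, with its start under peaks of 6.81 and 16.8 credited to MIR5001. EIF4E1B had a start under a wild-type peak of 9.85 credited to MIR4281, and a knockdown peak of 3.18 credited to SNCB lay within 1 kb. In these genes the credit, rather than the position of the peaks, set whether a promoter peak was counted.

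The 4 brakes on eIF4E all had promoter peaks in both lists, as did 53.6% of all protein-coding genes. EIF4EBP1, the best-studied 4E-BP, had folds of 6.68 and 14.1, and EIF4EBP2 had 3.57 and 10.2. EIF4EBP3 had 5.29 and 4.42. EIF4ENIF1, which carries eIF4E into the nucleus and represses bound mRNAs, had 4.24 and 10.7. Peaks at EIF5A, the hypusine-bearing factor that assists elongation, had 5.51 and 14.0, and those at its paralog EIF5A2 had 3.09, the lowest knockdown value of any member, and 9.45. EIF6, which keeps the large subunit from joining too early, had 3.79 and 8.77. EIF5AL1 and EIF2S3B had no credited peak and none over the RefSeq start in either list.

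Counting any peak over a RefSeq start, whatever gene it was credited to, gave more of the family in the wild-type list but not in the knockdown list. Of 43 family genes with a promoter window, 28 (65.1%) had a start under a knockdown peak, against 51.8% of 15813 protein-coding genes, and 39 (90.7%) had one under a wild-type peak, against 67.1%. The peak over the start was credited to another gene for 4 of these in the knockdown list and 8 in the wild-type list. A wild-type peak without a knockdown peak over the start was found for 12 genes (27.9%), against 16.7% of all genes, and the reverse for EIF2S3. This count rested on peak edges: 9 of the 12 had a knockdown peak within 1 kb, and EIF2S3 had a wild-type one. Counted within 1 kb, 3 genes (6.98%) had a wild-type peak alone, EIF1AX, EIF2B1 and EIF2S1, against 10.6% of all genes. Within that distance 37 genes had a knockdown and 40 a wild-type peak. The shares of all genes for these counts were not computed, and the shares over the start are no background for them. A divergent neighbour within 1 kb was listed for 8 of the 36 members with a window (22.2%), against 20.4% of all genes and 26.0% of genes under a peak. At such promoters a peak cannot be assigned to 1 of the genes. Starts of EIF5B, EIF4E3 and EIF4G2, which are outside this count, also had a peak credited to another gene over them or within 1 kb.

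Peak positions were close between the lists. Over 33 members whose strongest promoter peaks overlapped, the summits were a median of 57 bp apart, and 25 of them lay within 100 bp of each other. Over all 9920 such genes the median was 53 bp and 65.8% lay within 100 bp. The 8 members with a wild-type fold of at least 20 had a median gap of 11 bp (0 to 467 bp, the largest at EIF1), and the 25 others one of 72 bp. The same medians over all genes were 13 and 74 bp.

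Member peaks at promoters were mostly shared between the lists. Peaks that overlapped by 1 bp or more were counted as shared. This held for 40 of 43 knockdown promoter peaks of members, against 93.7% of all knockdown promoter peaks. It held for 39 of 48 in the wild-type list (81.2%), against 64%. Outside promoters the shares were 7 of 12 (58.3%) in the knockdown list, against 60.7%, and 7 of 26 (26.9%) in the wild-type list, against 25.4%. Shared promoter peaks had median folds of 5.13 (knockdown) and 11.1 (wild type), and the others had 3.12 and 4.42. The 9 unshared wild-type promoter peaks were those of EIF1AX, EIF2B1 and EIF2S1, and further peaks of EIF3B (3 peaks), EIF4B, EIF4ENIF1 and EIF5A.

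The members' peaks lay mainly at promoters. Promoters within 1 kb held 78.2% of the 55 knockdown and 64.9% of the 74 wild-type member peaks, against 49.9% and 38.9% of all peaks. Introns held 5.45% and 5.41%, against 15.4% and 18.2%. Distal intergenic peaks made up 9.09% of knockdown and 18.9% of wild-type member peaks, against 21.4% and 22.1%. No peak outside promoters came near the strong promoter peaks: the highest was 7.12 in the knockdown list, in an intron of EIF2A, and 11.9 in the wild-type list, 25.7 kb before EIF1.

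**Figure D3:**
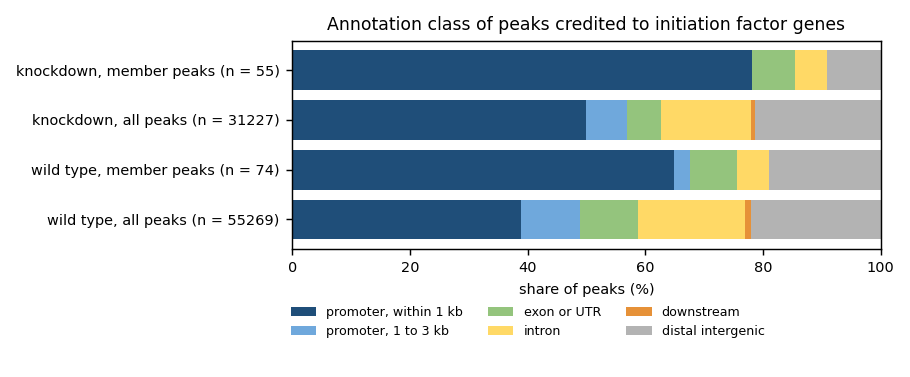
Share of peaks (horizontal axis, %) in each annotation class given by the authors, for initiation factor peaks and for all peaks of the knockdown and wild-type lists. The dark blue part, promoters within 1 kb, covers 78.2% and 64.9% of member peaks against 49.9% and 38.9% of all peaks.

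A few members had several peaks outside promoters. EIF3B had 2 peaks in the knockdown list and 9 in the wild-type list, of which 5 wild-type peaks lay beyond 1 kb of a start, with folds of 4.73 to 6.87. At EIF5A2, with 4 knockdown and 3 wild-type peaks, distal peaks 14.4 and 38.4 kb before the gene in the wild-type list overlapped knockdown peaks, with folds of 4.16 and 7.86 and of 5.47 and 8.83. EIF5 had 3 distal wild-type peaks, 49.5 to 58.9 kb before the gene, and 1 knockdown peak at 53.9 kb. EIF4EBP1 had a distal peak in both lists with folds of 5.85 and 6.49, which the authors' distance places 28.1 kb past an internal start at 38047339 and not the start under the promoter peak at 38030341. The EIF2A intron peak had folds of 7.12 and 5.08, the knockdown value being the higher one. Whether a distal peak acts on the gene it is credited to was not tested.

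The promoter sequences were searched for 10 motifs, on both strands and with overlapping matches counted once per window, from 250 bases before to 50 after the start. Members were matched by gene identifier, and 36 of 42 had a window, as did 15813 protein-coding genes. For each gene the window was the one under the strongest wild-type peak, then the strongest knockdown peak, or the first listed. The STAT site TTCNNNGAA was found in 2 members (5.56%), EIF4E and EIF4EBP3, against 6.64% of all genes and 4.96% of the 10837 genes with a peak over the start. The CCAAT box was found in 14 members (38.9%), against 36.2% and 35.3%. The GC box GGGCGG was found in 26 (72.2%), against 61.3% and 79.1%, and the ETS site CCGGAAG in 8 (22.2%), against 14.5% and 18.4%.

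The E-box CACGTG had the widest gap to the other genes, with 10 members (27.8%) against 8.88% of all genes and 10.4% of those under a peak. These were EIF1B, EIF2B3, EIF3F, EIF4A3, EIF4B, EIF4E, EIF4EBP3, EIF4G1, EIF4H and EIF5A2. Of these, 1 gene (EIF4G1) reached a wild-type fold of 20. Over all genes the E-box share was 10.2% under wild-type peaks with a fold below 10 and 9.46% under those of 50 or more. The YY1 motif was found in 1 member, EIF2B5 (2.78%, against 2.02% of all genes). No member window held the NRF1 or ZBTB33 motif, the cyclic AMP site TGACGTCA or the amino acid response site TGATGCAA, which were found in 1.80, 0.677, 2.57 and 0.607% of all genes. The windows of members had a median of 65% G and C (49.7 to 74.7%), against 63.7% for all genes and 68% for genes under a peak.

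**Figure D4:**
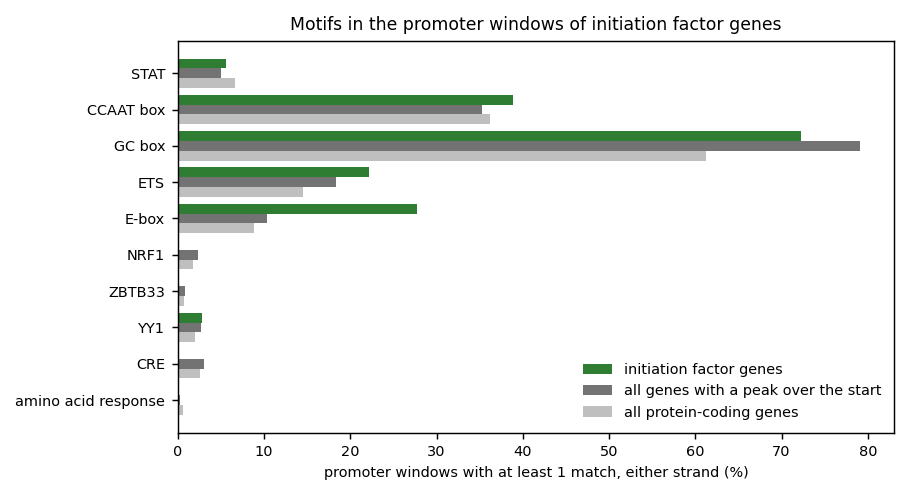
Share of promoter windows (horizontal axis, %) with at least 1 match to each motif on either strand. Green bars are the 36 initiation factor genes with a window, dark grey bars the 10837 genes with a peak over the start and light grey bars all 15813 protein-coding genes. The green E-box bar reaches 27.8% and the light grey one 8.88%, while the STAT bars differ by little.

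Strong peaks over a searched start went with CCAAT boxes, in members and in all genes alike. All 3 members with a wild-type fold of 50 or more over the start (EIF4A1, EIF2B2 and EIF5) had a box, as did 3 of 5 with a fold of 20 to 50 (EIF1, EIF2B4 and EIF2D), 6 of 14 with a fold of 10 to 20 and 2 of 13 with a fold under 10. In the class of 20 to 50, EIF4G2 (32.1) and EIF4G1 (20.8) had no box. By knockdown fold, a box was present in 4 of 10 with no peak over the start, 6 of 22 under 10 and all 4 members from 10 upward (EIF3F, EIF2B2, EIF5 and EIF4A1). These counts leave out the strong EIF4E3 peak (24.6 and 107), because no window held the start under it. EIF4E3 was classed by the weaker peaks over its RefSeq start (5.44 and 15.6), whose window had no box. Over all genes, the share with a box was 38.2% with no wild-type peak over the start, 29.0% under 10, 27.6% from 10 to 20, 51.7% from 20 to 50 and 75.3% from 50. In the knockdown list the shares were 34.5, 29.8, 65.2, 74.9 and 75.9% in the same order. Where the summit lay in the window, its median distance to the nearest box was 52, 36, 20 and 16 bp over the 4 wild-type fold classes from low to high. The knockdown medians were 42, 17, 15 and 15 bp. The STAT site was found in 3.74% of windows under wild-type peaks of 50 or more and 3.36% of those under such knockdown peaks. The members followed this unevenly: the EIF2D summits lay 198 and 203 bp from its box, whereas the weak EIF5A2 wild-type summit lay 2 bp from one. At EIF1 and EIF3F, counted above as having a box, the summits lay outside the window in both lists. These are counts of letters, and which protein was bound at a box was not tested.

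**Figure D5:**
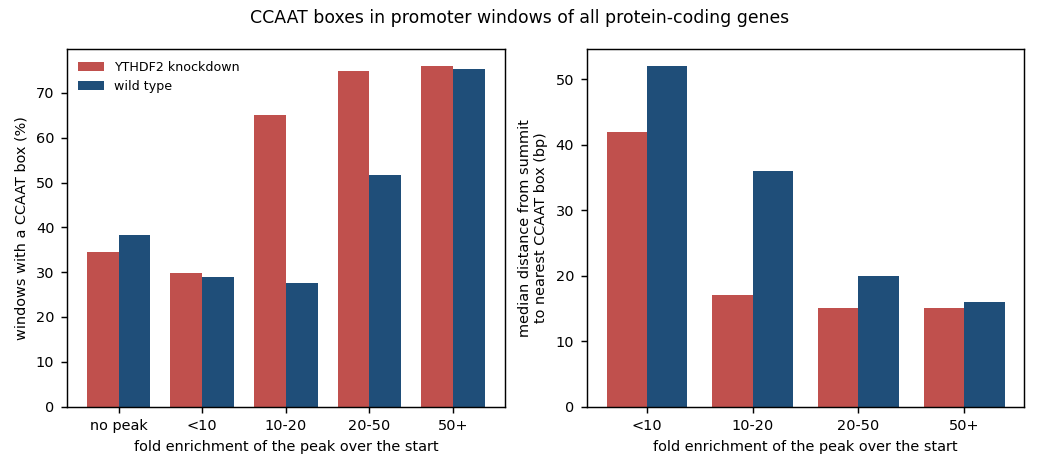
CCAAT boxes in the promoter windows of all protein-coding genes by the fold enrichment of the peak over the start. The left panel gives the share of windows with a box (%) and the right panel the median distance in bp from the peak summit to the nearest box, with red bars for the knockdown list and blue bars for the wild-type list. The share reaches 75.9% and 75.3% in the highest class, and the distance falls from 42 and 52 bp to 15 and 16 bp.

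The other genes of the pathway were described by 4 lists, to be read beside the 53.6% of all protein-coding genes with a promoter peak in both lists. In the integrated stress response, which acts through eIF2, all 12 genes carried a promoter peak in each list. EIF2AK3, the kinase PERK of the endoplasmic reticulum, had the strongest, at 57.1-fold in the knockdown and 42.4-fold in the wild-type list. ATF4, the transcription factor translated when eIF2 is phosphorylated, had 11.8 and 28.9. DDIT3, its target CHOP, had the weakest credited peaks (2.43 and 3.76), and its RefSeq start lay under stronger peaks credited to MBD6 (7.15 and 32.0). In the mTOR arm, which controls the 4E-BP brakes, 10 of 11 genes had one in both. DDIT4, an mTOR inhibitor induced by stress, had folds of 101 and 301, MTOR 33.6 and 41.4, and RHEB, its activator, 8.36 and 33.5. TSC2 had a credited promoter peak in the wild-type list only (7.28), but its start lay under peaks of 17.3 and 64.8 credited to NTHL1.

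Cofactors of the cap and of scanning had a promoter peak in both lists for 10 of 15 genes, against the same 53.6% of all genes. MKNK2, a kinase that phosphorylates eIF4E, had folds of 94.4 and 360, but its RefSeq start lay under weaker peaks (6.39 and 17.9), also credited to MKNK2. PABPC1, the poly(A)-binding protein that contacts eIF4G, had 37.9 and 107. No promoter peak was credited to DHX29, ABCE1, MCTS1, NCBP1 or NCBP2. The starts of DHX29 and NCBP2 lay under peaks credited to MTREX (5.07 and 8.38) and NCBP2-AS2 (7.02 and 14.6), and that of ABCE1 lay under a wild-type peak credited to ANAPC10 (4.44). Of 14 elongation, termination and mitochondrial factors, 11 had one in both lists, led by the release factors GSPT1 (60.2 and 179) and ETF1 (12.8 and 67.1). MTIF2 had one in the knockdown list only (3.50), and none was credited to EEF1E1 or TUFM. Their starts lay under peaks credited to EEF1E1-BLOC1S5 (8.42 and 9.52) and SH2B1 (4.65 and 15.1). As gene sets of like function, 55 of 86 cytosolic ribosomal protein genes (64.0%) and 26 of 34 aminoacyl-tRNA synthetase genes (76.5%) carried a promoter peak in each list, beside 66.7% of the initiation factor family and 53.6% of all genes. Their median folds were 5.28 and 9.68 for ribosomal protein genes and 5.60 and 11.4 for synthetase genes.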

How the data were processed

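STAT5A ChIP-seq was made from wild-type and YTHDF2 knockdown ARP1 cells, with 4 libraries in all. Per the submitters' processing notes, cutadapt, Trimmomatic, FastQC, Bowtie2 and MACS2 were used with the hg38 assembly, with no version or setting named. The deposited lists give for each peak a fold enrichment (a linear ratio) and a q-value by the authors, with every q-value under 0.05. The step that credited peaks to genes is recorded in no label or header. Groups were taken from the sample labels.

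Genes were matched by identifier to RefSeq (GRCh38.p14), which found 15423 of 15465 identifiers in the knockdown list and 17847 of 17903 in the wild-type list. A promoter peak lay within 1000 bp of a transcript start by the authors' distance, and the strongest one stood for the gene. Shared peaks overlapped by at least 1 bp. Shares were read beside those of all genes or peaks, with no test. Overlap, crediting and motif steps were tested on simulated data. Depth is unknown, so precision could not be derived. Tables were computed in Python 3.11.15 with pandas 2.3.3 and numpy 2.4.6, and drawn with matplotlib 3.10.9.

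Members, role groups, lists and motifs were chosen with earlier results of these data known. Values were given for up to 3 leading genes of each role group, genes with a promoter peak in 1 list only or none, and genes with many or distal peaks. Values of other members were added for completeness after they were seen, as were DDIT3 and the E-box promoters. Alternatives covered stricter q-values and folds, other windows and overlaps, a shortened wild-type list and gene matching by identifier.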

Additional observations from a re-analysis of the deposited data

How the results depend on the processing

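Of 115 values recomputed under other settings, 103 stayed within 1.5 times the count or within the spread allowed, and 12 moved. Reversals of direction were not assessed. Some values could not move by design: matching by identifier kept the same members, and stricter q-values could not drop peaks of very low q-value. With a fold of at least 5, promoter peaks were left for 20 members in the knockdown list, 18 in both, 2 in the knockdown list only and 16 in the wild-type list only, where the shares over all genes were 30.7% in the knockdown list, 29.8% in both, 0.931% in the knockdown list only and 30.8% in the wild-type list only. At a q-value under 0.001, members with a promoter peak in the knockdown list only numbered 2, beside 2.16% of all genes. EIF5A2 was lost from the knockdown list and EIF2S1 and EIF2S3 from the wild-type list. With the wild-type list reduced to its strongest peaks, to the length of the knockdown list, members with a knockdown promoter peak only numbered 3. EIF2S1, EIF2S3 and EIF4EBP3 were lost from the wild-type list. The share over all genes rose as well, from 2.42% to 4.16%. Shared peaks made up 85.5% of member peaks in the knockdown list (95% Clopper-Pearson interval 73.3 to 93.5%, counting error only) and 62.2% in the wild-type list (50.1 to 73.2%). Such intervals take peaks as independent, although some genes hold several, and served only as the spread allowed above. Among all knockdown peaks, 93.7% at promoters and 60.7% outside them were shared. Among all wild-type peaks, these shares were 64% and 25.4%. Under a reciprocal overlap of 50% the member shares were 63.6% and 48.6%, and with summits within 100 bp they were 56.4% and 44.6%. The shares of all peaks under these stricter overlaps were not computed. With the peak nearest a start, by edge and then by summit, the wild-type fold was 6.22 at EIF3B and 6.89 at EIF3G. The stronger peaks of both genes also covered a start in the authors' annotation. No paired analysis was possible because each condition has 1 peak list and no test was made. With 1 list per condition, read depth, antibody yield and the knockdown cannot be told apart.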
